A study of Homo sapiens with 27 samples.

Results

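The genes described here are 8 stress and growth-signalling genes from 3 families, out of 20268 protein-coding genes in the count table: the kinases PIM1, PIM2 and PIM3, the growth-arrest genes GADD45A, GADD45B and GADD45G, and the cytokine-signalling inhibitors SOCS2 and SOCS3. They were selected on the LNCaP95 data: PIM1 and GADD45B were chosen because they had among the largest falls in LNCaP95 cells with CPSF1 knockdown, and their paralogs and the SOCS genes were added for comparison. Values of that contrast are therefore given for these genes as a description, with no test. RNA-seq was performed on 3 human prostate cancer cell lines, each carrying a lentiviral shRNA after puromycin selection: either a control (CTRL sh) or 1 of the 2 CPSF1-directed hairpins, named CPSF1 sh1 and CPSF1 sh2. The 27 libraries form 9 groups of 3 replicates. LNCaP cells are hormone-sensitive, while LNCaP95 and 22Rv1 cells are hormone-insensitive, and LNCaP95 cells, derived from LNCaP, were kept in medium without phenol red. All groups therefore carried a hairpin and drug selection, and each line is a single established line, so that replicates are separate cultures and not separate tumours. Every library came from cells cultured for 72 h at 500000 cells per well in 10% serum. CPSF1 is a subunit of the cleavage and polyadenylation specificity factor, which recognizes the poly(A) signal at the end of a nascent mRNA, and the question was how its loss changes gene expression.

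PIM kinases are constitutively active serine/threonine kinases whose activity follows the amount of protein, which in turn follows a short-lived mRNA. They are induced by cytokines through JAK-STAT signalling and promote survival, translation and cell cycle entry, and PIM1 cooperates with MYC in prostate cancer. GADD45 proteins are small stress sensors without enzymatic activity that bind the kinase MAP3K4, PCNA, p21 and CDK1. GADD45A is a classical p53 target and GADD45B a classical NF-kB and TGF-beta target. SOCS proteins are induced by STATs and end cytokine signalling by blocking JAKs or receptors and by recruiting an elongin-cullin ubiquitin ligase, and SOCS2 restrains growth hormone signalling while SOCS3 restrains signalling through the IL-6 receptor subunit gp130.

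Totals of 8515624 to 15904518 gene counts per library, with a median of 11058723, were available. CPSF1 itself fell in each line, from a mean of 151.9 CPM (counts scaled to library size) in CTRL sh to 101.0 and 91.5 CPM with CPSF1 sh1 and CPSF1 sh2 in LNCaP, from 113.1 to 61.1 and 61.1 CPM in LNCaP95, and from 182.3 to 126.2 and 132.1 CPM in 22Rv1 cells. All 8 markers of prostate luminal epithelium exceeded 2 CPM in every library. Of the markers of other cell types, none of 3 basal and none of 4 leukocyte markers exceeded 2 CPM in every library of a line, COL1A1 did in each line, and COL3A1 and the endothelial gene VWF did in LNCaP. In LNCaP cells the summed fibroblast markers lay at 26.3 to 31.4 CPM in CTRL sh and at 17.8 to 20.7 CPM with CPSF1 sh, the summed endothelial markers at 22.5 to 28.2 and at 9.30 to 12.7 CPM, and the summed basal markers at 1.27 to 2.12 and at 3.79 to 6.29 CPM. The summed luminal markers were lower with CPSF1 sh in LNCaP, at 4036 to 4251 against 4458 to 4471 CPM in CTRL sh, and in LNCaP95, at 3598 to 3676 against 4370 to 4595 CPM. In LNCaP95 the summed endothelial markers lay at 0.680 to 1.25 CPM in CTRL sh and at 1.70 to 4.34 CPM with CPSF1 sh. The summed leukocyte markers lay at 0 to 0.0971 and at 0.244 to 1.57 CPM in LNCaP95, and at 0 to 0.0947 and at 0.166 to 0.531 CPM in LNCaP. The other sums in LNCaP95 and all 5 sums in 22Rv1 overlapped between CTRL sh and CPSF1 sh. The part of these shifts in the results below was not tested. These are bulk samples, in which fewer cells that express a gene and less of its RNA per cell cannot be told apart.

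Because CPSF1 belongs to the complex that reads the poly(A) signal, the last annotated bases of each of the 8 genes are shown first. They were read from the GRCh37 genome, the build of the count table, near the 3′ end of the canonical GENCODE transcript, 5′ to 3′ on the strand of the gene. For SOCS2 that transcript ends at 93970521, whereas the gene in the count table runs to 93977263. Capitals mark the poly(A) signal, AATAAA or its common variant ATTAAA.
PIM1 (chr6:37143172-37143201, plus strand): tggcgttttttgAATAAAaaccttttgtct
PIM2 (chrX:48770463-48770492, minus strand): aacccactatttAATAAAagtaatagaatc
PIM3 (chr22:50357688-50357717, plus strand): acaggtatttcaATTAAAatgtttttgtac
GADD45A (chr1:68153979-68154008, plus strand): cacaatacctacAATAAActggtatgaata
GADD45B (chr19:2478225-2478254, plus strand): tgagggccttgtAATAAAtttctaaagcct
GADD45G (chr9:92221439-92221468, plus strand): tttgaattttacAATAAActttttgaaaca
SOCS2 (chr12:93970490-93970519, plus strand): gttataaattgtAATAAAacctgcttactg
SOCS3 (chr17:76352870-76352899, minus strand): tcagtaatttatAATAAAgagcactatttt

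AATAAA was found within the last 50 bases of 7 of the 8 transcripts, and PIM3 held ATTAAA only. Among 17061 genes with a 3′ UTR of at least 50 bases, 66.6% held AATAAA in that window and another 14.6% held ATTAAA without it. The distance from the signal to the annotated end was 15 bases in PIM1 and 13 bases in GADD45B, within the range of 13 to 23 bases over the 8 genes.

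Each of the 8 genes spans less than the median gene. By the coordinates of the count table, PIM1 covers 5224 bases of chromosome 6 (37137979 to 37143202), PIM2 5843 bases of chromosome X (48770459 to 48776301) and PIM3 3568 bases of chromosome 22 (50354161 to 50357728). GADD45A covers 3278 bases of chromosome 1 (68150744 to 68154021), GADD45B 2133 bases of chromosome 19 (2476125 to 2478257) and GADD45G 1543 bases of chromosome 9 (92219928 to 92221470). SOCS2 covers 13674 bases of chromosome 12 (93963590 to 93977263) and SOCS3 3295 bases of chromosome 17 (76352864 to 76356158). The median span over 20255 genes was 25621 bases. Of these genes, 5.82% were shorter than GADD45G, 8.13% than GADD45B and 34.95% than SOCS2, the longest of the 8. In the canonical transcripts each PIM gene has 6 exons, each GADD45 gene 4 exons and each SOCS gene 2 exons, so that paralogs share their layout.

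The 3′ UTRs differed in AU-rich elements, short sequences that are bound by mRNA decay factors. The pentamer ATTTA occurred 5 times in the 3′ UTR of PIM1 (1337 bases), 2 times in PIM2 (949 bases) and 4 times in PIM3 (945 bases). It occurred 2 times in GADD45A (560 bases), 5 times in SOCS2 (1566 bases) and 4 times in SOCS3 (1640 bases), and was not found in GADD45B (656 bases) or GADD45G (476 bases). At least 1 copy was found in 70.0% of the 17061 genes. The longer form TTATTTATT, which contains the pentamer, was present 3 times in PIM1 and once in SOCS2, against 8.77% of genes with at least 1 copy. PIM1 and GADD45B, the pair of the 8 genes with the largest falls in LNCaP95, were therefore unlike each other in this feature, though their 3′ UTRs also differed in length. Of 2110 genes with a 3′ UTR of similar length to that of PIM1, 23.4% held at least as many ATTTA copies.

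Promoter sequences from RefSeq (GRCh38.p14, 250 bases before to 50 bases after the annotated start) matched 6 of the 8 genes, and GADD45A and SOCS2 had no entry. Those of PIM1 and GADD45B are shown because these had the largest falls among the 8 genes in LNCaP95. Both strands were searched for the STAT-type motif TTCNNNGAA, the E-box CACGTG and the TATA box TATAAA, and matches are in capitals.
PIM1 (chr6:37169902-37170201, plus strand): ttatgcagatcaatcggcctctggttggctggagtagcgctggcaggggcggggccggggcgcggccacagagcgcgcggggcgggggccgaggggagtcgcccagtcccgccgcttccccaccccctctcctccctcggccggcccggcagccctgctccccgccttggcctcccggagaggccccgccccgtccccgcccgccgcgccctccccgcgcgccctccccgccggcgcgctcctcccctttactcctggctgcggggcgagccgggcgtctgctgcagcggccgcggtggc
GADD45B (chr19:2475877-2476176, plus strand): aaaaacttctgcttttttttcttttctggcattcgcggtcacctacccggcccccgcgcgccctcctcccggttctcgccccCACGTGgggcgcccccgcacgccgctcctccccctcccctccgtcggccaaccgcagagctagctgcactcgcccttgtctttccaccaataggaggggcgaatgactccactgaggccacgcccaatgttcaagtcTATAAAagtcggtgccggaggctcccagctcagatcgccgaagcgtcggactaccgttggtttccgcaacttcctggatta

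The PIM1 promoter was 79.7% G or C and held none of the 3 motifs, whereas that of GADD45B was 61.7% G or C and held 1 E-box and 1 TATA box. The E-box was also present once in the GADD45G promoter. Over all 35116 promoters, 7.26% held the E-box, 11.5% the TATA box and 7.66% the STAT-type motif. None of the 7 windows searched for the 6 genes contained the STAT-type motif. SOCS3 had more than 1 window, and whether any of them covers the start of its canonical transcript was not checked. A match is a run of letters and was not tested as a binding site.

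Without knockdown, the families were expressed at different levels and in different mixtures across the lines. Levels per length, in RPKM (CPM divided by exon length in kilobases), allow genes to be compared with each other. The 3 PIM genes summed to 49.4 ± 1.26 RPKM (SD, n = 3) in LNCaP, 175.6 ± 19.7 RPKM in LNCaP95 and 93.7 ± 0.818 RPKM in 22Rv1 CTRL sh cells. PIM3 made up most of this sum in LNCaP (63.9%) and 22Rv1 (82.7%), while in LNCaP95 cells PIM1 contributed 45.9 ± 0.520% and PIM3 44.2 ± 0.815%. PIM1 contributed 11.6% in LNCaP and 8.72% in 22Rv1 cells. The 3 GADD45 genes summed to 35.7 ± 2.71 RPKM in LNCaP, 110.5 ± 11.7 RPKM in LNCaP95 and 33.9 ± 1.49 RPKM in 22Rv1 cells, with GADD45G the highest in LNCaP and 22Rv1 and GADD45A the highest in LNCaP95. SOCS2 stood at 3.28 RPKM in LNCaP, 15.9 RPKM in LNCaP95 and 0.357 RPKM in 22Rv1 cells, and SOCS3 at 0.110, 0.463 and 0.191 RPKM.

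In the CTRL sh libraries, each of the 8 genes had its highest mean CPM in LNCaP95. For PIM3 the 3 LNCaP95 libraries (158.9 to 206.6 CPM) overlapped the 3 22Rv1 libraries (181.5 to 186.9 CPM), and for the other 7 genes they lay above every CTRL sh library of the other lines. The share of all genes with this pattern was not computed. These LNCaP95 controls are also part of the contrast that chose PIM1 and GADD45B, so nothing is read from this count. Between 22Rv1 and LNCaP, which the selection did not use, 6 of the 7 genes that could be tested differed at an adjusted p below 0.05, against 82.5% of the 10317 genes tested. PIM1 (log2 difference 22Rv1 minus LNCaP 0.54, SE 0.114, edgeR adjusted p = 7.02e-05), PIM3 (1.32, SE 0.0825) and GADD45B (0.75, SE 0.143) were higher in 22Rv1. PIM2 (-0.55, SE 0.0698), GADD45A (-1.05, SE 0.102) and SOCS2 (-3.18, SE 0.106) were lower in 22Rv1. GADD45G (0.17, SE 0.0988) did not pass the test (edgeR adjusted p = 0.118).

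**Figure D1:**
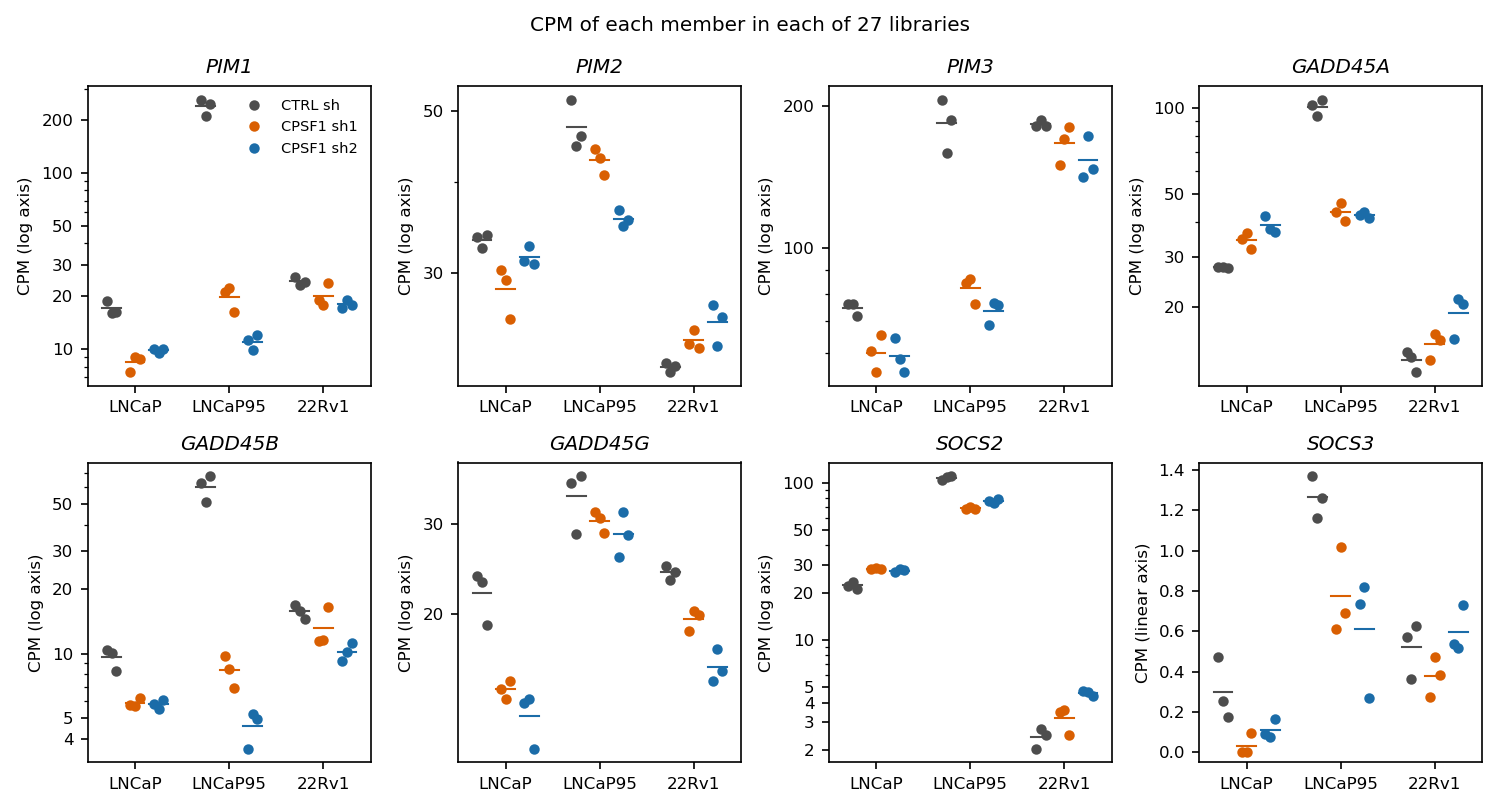
CPM of each of the 8 genes (1 panel each, log axis except SOCS3) in each of 27 libraries, by cell line and by hairpin (CTRL sh grey, CPSF1 sh1 orange, CPSF1 sh2 blue), where points are libraries and short lines are means of 3. The LNCaP95 CTRL sh libraries of PIM1 lie at 213 to 262 CPM, far above all other libraries, and PIM2 in LNCaP95 steps down only slightly.

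PIM1 was lower with knockdown in all 3 lines, by very different amounts. In LNCaP cells its CTRL sh libraries held 18.8, 16.1 and 16.3 CPM, those with CPSF1 sh1 7.42, 9.11 and 8.86 CPM, and those with CPSF1 sh2 10.1, 9.51 and 10.0 CPM. All 6 knockdown libraries lay below the 3 controls, and the fall passed the test (log2 fold change -0.87, SE 0.1002, edgeR adjusted p = 3.16e-06). In 22Rv1 cells CTRL sh gave 25.8, 23.2 and 24.0 CPM, CPSF1 sh1 19.1, 17.8 and 23.8 CPM, and CPSF1 sh2 17.1, 19.0 and 18.0 CPM. There 5 of 6 knockdown libraries lay below every control, replicate 3 of CPSF1 sh1 overlapped them, and PIM1 fell by 0.35 on the log2 scale (SE 0.0962, edgeR adjusted p = 0.0147). The 22Rv1 call was lost without CTRL sh replicate 1 (adjusted p = 0.0879) and with CPSF1 sh1 alone against CTRL sh (adjusted p = 0.118).

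In LNCaP95 cells, whose values chose this gene, PIM1 stood at 262, 213 and 246 CPM in CTRL sh, at 21.1, 22.2 and 16.3 CPM with CPSF1 sh1 and at 11.3, 9.90 and 12.0 CPM with CPSF1 sh2. The mean dropped from 239.9 ± 25.05 CPM (SD, n = 3) to 15.5 ± 5.27 CPM (SD, n = 6), a log2 fold change of -3.93. With knockdown the LNCaP95 libraries (9.90 to 22.2 CPM) reached into the range of the LNCaP controls (16.1 to 18.8 CPM). This was the largest fall of all 11143 genes tested in the line. GADD45B held rank 3 at -3.17, between ANKRD37 at -3.28 and BHLHE40 at -2.91, which C1orf63 followed at -2.88.

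The paralogs of PIM1 moved less. PIM2 stood at 32.5 to 33.8 CPM in LNCaP CTRL sh and at 25.9 to 32.7 CPM with CPSF1 sh (log2 fold change -0.13, SE 0.0681, edgeR adjusted p = 0.0991), and at 21.9 to 22.6 against 23.7 to 27.1 CPM in 22Rv1 cells (0.16, SE 0.0692, edgeR adjusted p = 0.0980). Neither value passed the test, although all 6 knockdown libraries of 22Rv1 lay above the 3 controls. In LNCaP95 cells PIM2 moved from 44.7 to 51.8 CPM to 34.8 to 44.4 CPM, with a log2 fold change of -0.28.

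PIM3, the most abundant PIM mRNA in LNCaP and 22Rv1, fell in LNCaP from 72.0 to 76.3 CPM to 54.6 to 65.4 CPM (log2 fold change -0.32, SE 0.0605, edgeR adjusted p = 0.000347). In 22Rv1 it stood at 181.5 to 186.9 CPM in CTRL sh and at 141.9 to 181.1 CPM with CPSF1 sh, with the 6 knockdown libraries below the 3 controls and a log2 fold change of -0.19 (SE 0.0701, edgeR adjusted p = 0.0529) that missed the threshold. In LNCaP95 the log2 fold change of PIM3 was -1.24, from 158.9 to 206.6 CPM down to 68.8 to 86.3 CPM. The PIM mixture of LNCaP95 shifted with these values: PIM1 went from 45.9% of the summed PIM RPKM to 11.7 ± 1.09% with CPSF1 sh1 and 7.79 ± 0.773% with CPSF1 sh2, while the sum went from 175.6 to 56.9 and 47.7 RPKM. The share of PIM1 in the LNCaP controls was 11.6%.

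**Figure D2:**
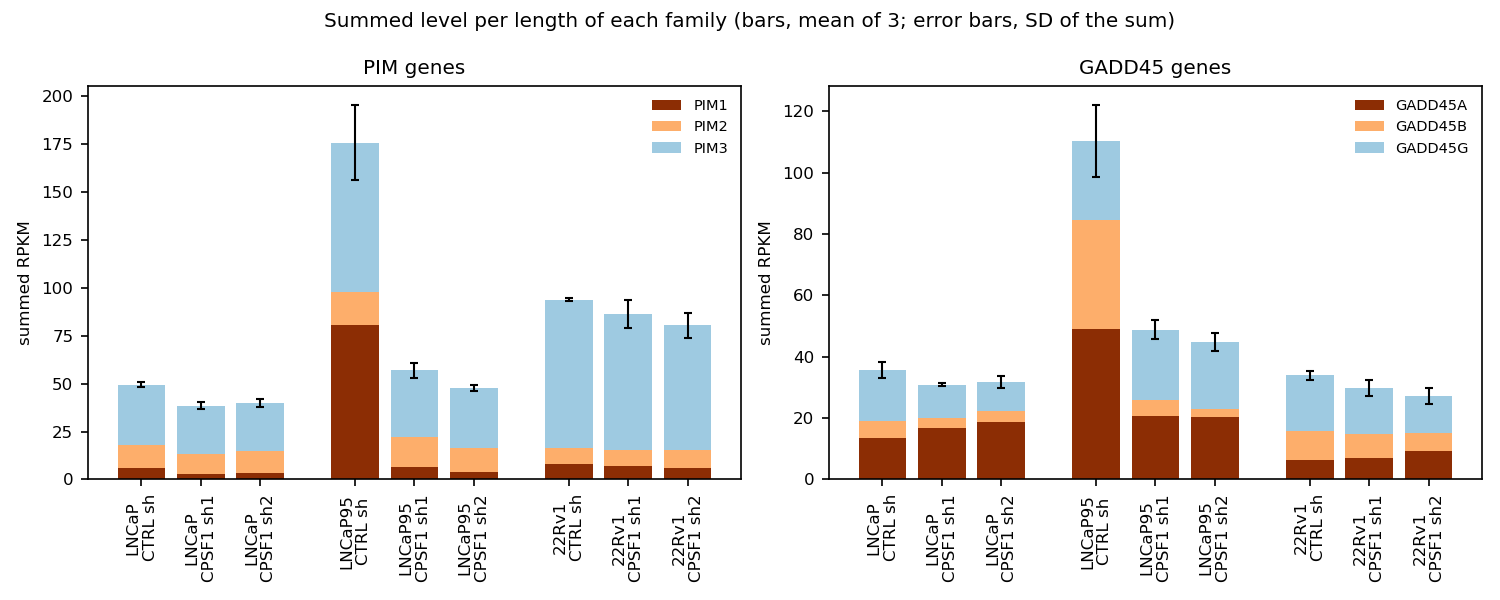
Summed RPKM of the PIM genes (left) and GADD45 genes (right) in each of 9 groups, where each bar is the mean of 3 libraries, split by gene, and error bars are the SD of the sum. PIM1 makes up 45.9% of the tallest PIM bar, LNCaP95 CTRL sh, and the GADD45 sum of LNCaP95 drops from 110.5 to 48.9 and 44.8 RPKM.

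The GADD45 genes differed in direction from each other. GADD45B fell in LNCaP, from 10.4, 10.1 and 8.32 CPM in CTRL sh to 5.74, 5.68 and 6.23 CPM with CPSF1 sh1 and 5.84, 5.53 and 6.06 CPM with CPSF1 sh2. All 6 knockdown libraries lay below the controls (log2 fold change -0.71, SE 0.107, edgeR adjusted p = 4.41e-05). In 22Rv1 it stood at 16.9, 15.9 and 14.5 CPM in CTRL sh, at 11.5, 11.6 and 16.6 CPM with CPSF1 sh1 and at 9.21, 10.1 and 11.3 CPM with CPSF1 sh2. Replicate 3 of CPSF1 sh1 lay within the controls and the other 5 below them, with a fall of 0.43 on the log2 scale (SE 0.143, edgeR adjusted p = 0.0362). Among fits that left out 1 library, this call was kept only without CPSF1 sh1 replicate 3 (adjusted p = 0.000468). It was lost when any one of the other 8 libraries was left out, with adjusted p-values of 0.0548 to 0.152. With CPSF1 sh1 alone against CTRL sh it was also lost (adjusted p = 0.239).

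In LNCaP95 cells, where its fall chose it, GADD45B stood at 62.3, 51.0 and 67.4 CPM in CTRL sh, at 9.71, 8.49 and 6.93 CPM with CPSF1 sh1 and at 3.60, 5.24 and 4.98 CPM with CPSF1 sh2. Its mean moved from 60.3 ± 8.39 CPM (SD, n = 3) to 6.49 ± 2.31 CPM (SD, n = 6), against 9.62 ± 1.14 CPM in the LNCaP controls. The share of GADD45B in the summed GADD45 RPKM went from 32.3% to 10.1% and 6.08%.

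GADD45A, the p53-responsive member, was higher with knockdown in LNCaP and lower in LNCaP95. It rose in LNCaP, from 27.4 to 27.8 CPM in CTRL sh to 32.0 to 41.7 CPM with CPSF1 sh (log2 fold change 0.42, SE 0.0738, edgeR adjusted p = 0.000177). In 22Rv1 it stood at 11.8 to 13.9 against 13.1 to 21.3 CPM, with 5 of 6 knockdown libraries above every control and a log2 fold change of 0.37 (SE 0.142, edgeR adjusted p = 0.0706) that did not pass. In LNCaP95 all 6 knockdown libraries (40.0 to 46.4 CPM) lay below the controls (93.9 to 107 CPM), a log2 fold change of -1.25.

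GADD45G had its larger falls outside LNCaP95. It fell in LNCaP, from 19.0 to 23.8 CPM in CTRL sh to 10.9 to 14.8 CPM with CPSF1 sh (log2 fold change -0.70, SE 0.0993, edgeR adjusted p = 2.33e-05), and in 22Rv1, from 23.4 to 24.9 CPM to 14.8 to 20.3 CPM (-0.45, SE 0.0986, edgeR adjusted p = 0.00385). In LNCaP95 its ranges overlapped, at 28.7 to 37.3 CPM in CTRL sh and 25.9 to 31.7 CPM with CPSF1 sh, and the log2 fold change was -0.20. The GADD45 gene with the smallest difference in LNCaP95 was thus the one whose fall in LNCaP was similar in size to that of GADD45B.

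SOCS2 rose in the lines where it was low and was lower with knockdown in the line where it was high. In LNCaP it rose from 22.1, 23.4 and 21.2 CPM in CTRL sh to 27.01 to 28.6 CPM over the 6 knockdown libraries (log2 fold change 0.34, SE 0.06005, edgeR adjusted p = 0.000164). In 22Rv1 its CTRL sh libraries held 2.04, 2.72 and 2.51 CPM, just above the limit of 2 CPM for testing, and the knockdown libraries 2.504 to 4.74 CPM (0.69, SE 0.208, edgeR adjusted p = 0.0248). The 22Rv1 call was lost without CTRL sh replicate 1 (adjusted p = 0.134) or replicate 3 (adjusted p = 0.0683). With CPSF1 sh1 alone against CTRL sh it was also lost (adjusted p = 0.206). In LNCaP95 SOCS2 stood at 103.7 to 110.1 CPM in CTRL sh and 68.1 to 79.1 CPM with CPSF1 sh, a log2 fold change of -0.57.

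SOCS3 was barely detected and was not tested in any line. Its 27 libraries held 0 to 19 counts each, with 5, 3 and 2 counts in the LNCaP controls and 0, 0, 1, 1, 1 and 2 counts with CPSF1 sh. In LNCaP95 the controls held 19, 13 and 13 counts (1.16 to 1.37 CPM) and the knockdown libraries 3 to 15 counts (0.271 to 1.02 CPM), so that the groups did not overlap. In 22Rv1 they overlapped, at 0.362 to 0.627 CPM and 0.274 to 0.733 CPM. At this depth a difference in LNCaP or 22Rv1 rests on a few reads per library.

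Counted together, 7 of the 8 genes passed the filter in every line. In LNCaP, 4 of the 7 were lower (PIM1, PIM3, GADD45B and GADD45G) and 2 higher (GADD45A and SOCS2), where 31.0% of all 11096 genes tested were lower and 31.1% higher. In 22Rv1, 3 were lower (PIM1, GADD45B and GADD45G) and 1 higher (SOCS2), where 14.3% of 11728 genes were lower and 12.7% higher. In LNCaP95, 6 were below CTRL sh at the same threshold and none above, where 33.7% of 11143 genes were lower and 33.2% higher, and nothing is read from this count because the contrast chose the genes. By size of fall, PIM1 was 340th and GADD45B 580th in LNCaP, and 808th and 510th in 22Rv1.

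**Figure D3:**
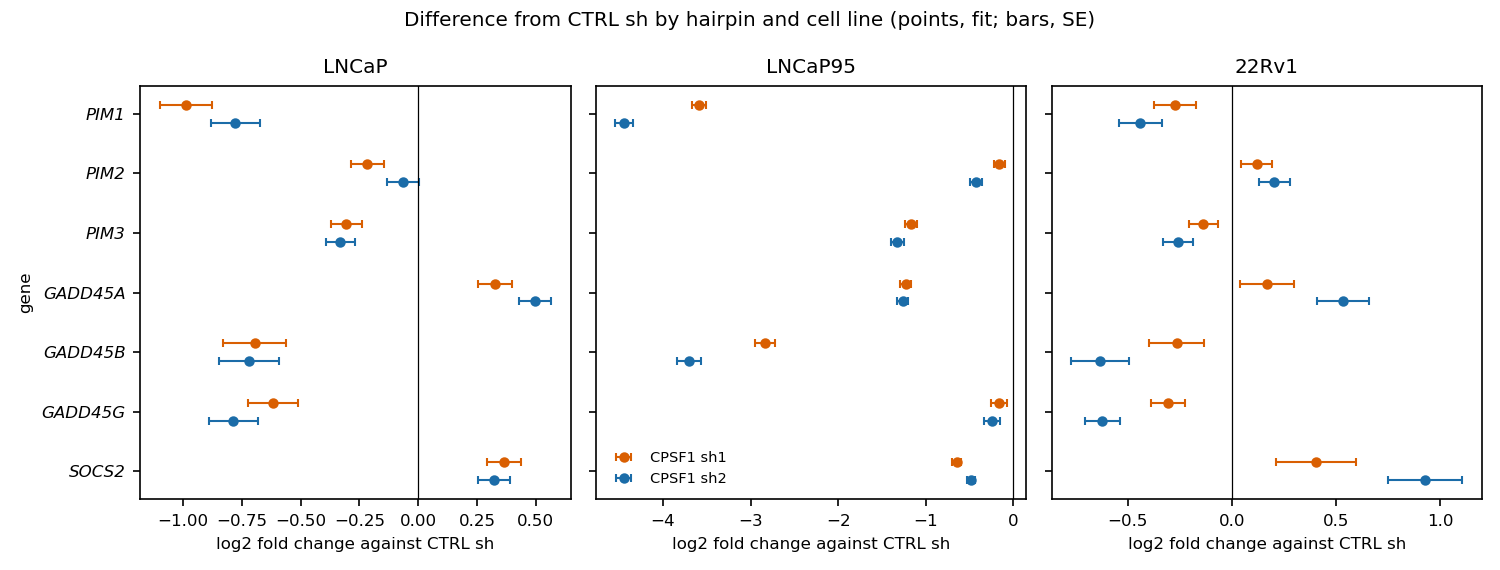
Log2 fold change against CTRL sh (horizontal axis, a separate scale in each panel) for 7 genes, with CPSF1 sh1 in orange and CPSF1 sh2 in blue, where points are fitted values and bars their SE. PIM1 and GADD45B in LNCaP95 stand apart from the other genes and from both other lines, and the same pair differs most between hairpins there.

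The hairpins were compared with each other directly, a contrast that the selection did not use. In LNCaP none of the 7 genes differed between CPSF1 sh1 and CPSF1 sh2 in edgeR or in DESeq2, where 14.8% of all genes differed in edgeR, and 2 (PIM2 and GADD45A) had an unadjusted p below 0.05. In LNCaP95, 4 of 7 differed, against 34.1% of all genes. PIM1 was lower with CPSF1 sh2 than with CPSF1 sh1, 11.1 ± 1.08 against 19.9 ± 3.13 CPM (log2 difference -0.86, SE 0.130, edgeR adjusted p = 4.79e-05). GADD45B was also lower with CPSF1 sh2, 4.60 ± 0.882 against 8.37 ± 1.39 CPM (-0.86, SE 0.182, edgeR adjusted p = 0.00113), as was PIM2, 35.6 ± 0.877 against 42.8 ± 1.82 CPM (-0.26, SE 0.0662, edgeR adjusted p = 0.00443). SOCS2 was higher with CPSF1 sh2, 76.9 ± 2.31 against 68.8 ± 0.892 CPM (0.16, SE 0.0492, edgeR adjusted p = 0.0149), a call that was lost without CPSF1 sh2 replicate 3 (adjusted p = 0.0765). The other paralogs PIM3 (-0.16, SE 0.0772), GADD45A (-0.03, SE 0.0678) and GADD45G (-0.08, SE 0.0901) did not pass. CPSF1 itself stood at 61.1 CPM with either hairpin in this line.

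In 22Rv1 only GADD45G differed between hairpins, against 11.3% of all genes. It stood at 18.5, 20.3 and 19.9 CPM with CPSF1 sh1 and at 14.8, 17.1 and 15.5 CPM with CPSF1 sh2 (log2 difference -0.31, SE 0.0868, edgeR adjusted p = 0.0304), and the call was lost without CPSF1 sh1 replicate 2 or CPSF1 sh2 replicate 1 or 3 (adjusted p = 0.0895 to 0.133). SOCS2 (0.53, SE 0.168), GADD45A (0.36, SE 0.123) and GADD45B (-0.37, SE 0.142) had values of similar size or larger and did not pass (edgeR adjusted p = 0.0558, 0.0678 and 0.107). Against CTRL sh in this line, 1 of 7 genes, GADD45G, was called with CPSF1 sh1 alone, where 15.7% of 11792 genes were called. All 7 were called with CPSF1 sh2 alone, where 51.4% of 11766 genes were.

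The change with knockdown was compared between 22Rv1 and LNCaP in 1 fit of all libraries. Of 7 genes, PIM2 alone differed, against 40.4% of 10317 genes: its change was 0.31 higher in 22Rv1 on the log2 scale (SE 0.114, edgeR adjusted p = 0.0301). This call was lost in 5 of the fits that left out 1 library, namely LNCaP CTRL sh replicate 1 or 3, 22Rv1 CTRL sh replicate 2 or 3, or 22Rv1 CPSF1 sh2 replicate 1 (adjusted p = 0.0504 to 0.0656). PIM1 fell less in 22Rv1 than in LNCaP by the point values (difference 0.53, SE 0.245), and that difference did not pass (edgeR adjusted p = 0.0844). The fit took the spread of each gene from all 27 libraries, LNCaP95 included, with the hairpins pooled. In the fits of each line alone the SE of the PIM1 change was 0.1002 in LNCaP and 0.0962 in 22Rv1. The part of LNCaP95 in the SE of the difference was not tested. GADD45A had the most similar change in the lines, with a difference of -0.04 (SE 0.151).

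**Figure D4:**
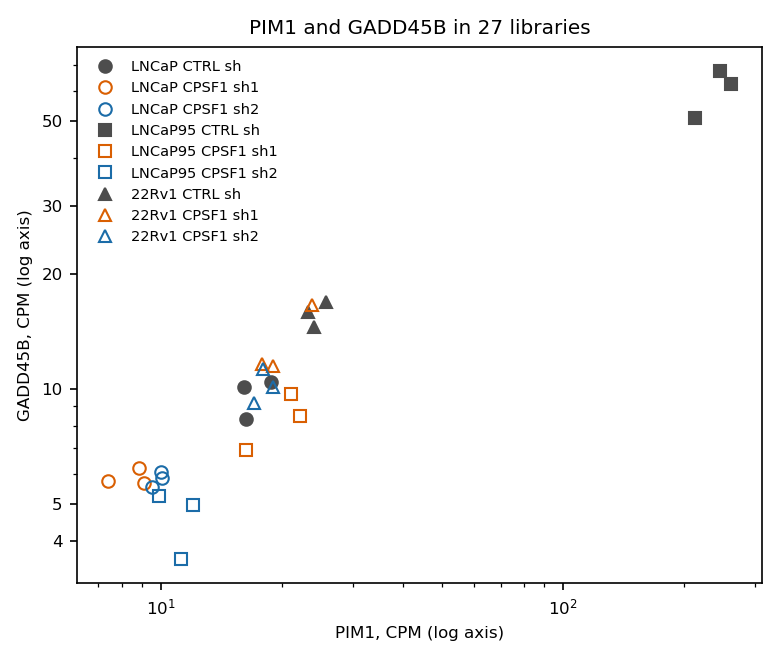
PIM1 CPM (horizontal log axis) against GADD45B CPM (vertical log axis), where each of 27 points is a library, shapes mark the line, colours the hairpin and filled symbols CTRL sh. The 3 LNCaP95 CTRL sh libraries lie alone at the upper right, at 213 to 262 CPM of PIM1 and 51.0 to 67.4 CPM of GADD45B, and the other 24 lie between 7.42 and 25.8 CPM of PIM1.

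The likeness of PIM1 and GADD45B across libraries rested in part on LNCaP95, whose values chose both genes. Likeness was measured as the Pearson correlation of log2 CPM over the 27 libraries, after the mean of the controls of each line had been subtracted, and is a description, since libraries share lines, hairpins and controls. Over all libraries r was 0.991, which put each gene first of 13480 genes in likeness to the other. Over the 18 libraries without LNCaP95 r was 0.891, and GADD45B was then 255th in likeness to PIM1 and PIM1 54th in likeness to GADD45B.

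The next most like PIM1 over all libraries were PPP1R3B (r = 0.989), which encodes a regulatory subunit of a glycogen phosphatase, C1orf63 (0.986) and HILPDA (0.986), which encodes a lipid droplet protein. Without LNCaP95 their r was 0.900, 0.752 and 0.813, and PPP1R3B was then more like PIM1 than GADD45B was. The next most like GADD45B were the RNA helicase gene DDX41 (0.988), WDR45B (0.983) and PRR15L (0.983), with r of 0.854, 0.873 and 0.733 without LNCaP95. In the order LNCaP, LNCaP95 and 22Rv1, HILPDA had log2 fold changes of -0.65, -2.55 and -0.04, and PPP1R3B -0.73, -2.73 and -0.18.

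Among the other pairs of the 7 genes, several correlations differed with and without LNCaP95. PIM3 had r = 0.978 with PIM1 and 0.982 with GADD45B over all libraries, and 0.803 and 0.860 without LNCaP95. GADD45G had r = 0.01 with PIM1 and 0.06 with GADD45B over all libraries, and 0.834 and 0.903 without LNCaP95. GADD45A had r = 0.869 with PIM1 and 0.850 with GADD45B over all libraries, and -0.580 and -0.680 without LNCaP95, where its direction was opposite. GADD45A and SOCS2 had r = 0.873, and 0.645 without LNCaP95. GADD45G was negatively correlated with SOCS2 (-0.548, and -0.614 without LNCaP95) and with GADD45A (-0.406, and -0.740).

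Among the rest of the SOCS family, 5 of 6 genes were tested, and SOCS1, an inhibitor of JAK kinases, did not pass the filter in any line. In LNCaP95 SOCS1 stood above the limit in the controls, with a mean of 4.85 CPM and a lowest library of 4.28 CPM, and below it with knockdown, where the CPSF1 sh1 and CPSF1 sh2 means were 0.343 and 0.321 CPM. The highest knockdown library, at 0.671 CPM, lay below every control of that line, and the difference was not tested. In LNCaP and 22Rv1 the SOCS1 controls had means of 0.454 and 0.274 CPM, and their ranges overlapped with those of the knockdown libraries. In LNCaP, SOCS5 (log2 fold change -0.23, SE 0.0846), SOCS7 (-0.26, SE 0.0764) and CISH (-0.55, SE 0.170) fell, all with edgeR adjusted p-values below 0.05, and SOCS4 (0.12) and SOCS6 (-0.11) did not pass. CISH, a classical STAT5 target, and SOCS2 therefore differed in sign in LNCaP. In LNCaP95, SOCS7 had -0.64, SOCS4 0.45, SOCS5 0.15, SOCS6 0.11 and CISH -0.43, with SOCS7 called lower and SOCS4 higher. In 22Rv1 none of the 5 was called in edgeR and 1, SOCS6, had an unadjusted p below 0.05, and no other tool was run on these lists.

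The other genes of the pathways are given as counts, to be read against the shares of all genes above, and the medians of all genes tested were -0.000360 in LNCaP, 0.00129 in LNCaP95 and -0.00235 in 22Rv1. Of the JAK-STAT list, 7 of 27 tested were lower and 10 higher in LNCaP, 9 and 9 of 26 in LNCaP95, and 4 and 4 of 28 in 22Rv1, with median log2 fold changes of 0.02, 0.07 and -0.02. STAT3, the transcription factor downstream of gp130, rose in LNCaP (0.42, SE 0.0397, edgeR adjusted p = 4.57e-07) and stood at -0.03 in LNCaP95 and 0.19 in 22Rv1. The phosphatase gene PTPN11 had -0.00, 0.07 and -0.13, and the STAT3 inhibitor gene PIAS3 -0.32, -0.18 and 0.08, in the order LNCaP, LNCaP95 and 22Rv1. Of the 6 genes of the SOCS box ubiquitin ligase, 1 was lower and 4 higher in LNCaP, 2 and 1 in LNCaP95, and 1 and none in 22Rv1. TCEB2, which encodes elongin B, had 0.25, 0.07 and 0.07, RBX1 0.10, -0.22 and -0.25, and RNF7 0.43, 0.04 and 0.16.

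PIM substrate genes and the stress MAP kinase partners of GADD45 were called in both directions. Of 14 PIM substrate genes tested, 6 were lower and 3 higher in LNCaP, 7 and 6 for LNCaP95, and 3 and 2 for 22Rv1, with medians of -0.05, -0.04 and -0.05. The translation genes EIF4B (log2 fold changes -0.31, -0.41 and -0.12) and EIF4EBP1 (-0.59, -0.48 and -0.41) were lower in each line, and CBX3, a heterochromatin protein gene, had 0.08, 0.26 and 0.05. Of the stress MAP kinase genes, 5 of 14 were lower and 3 higher in LNCaP, 3 and 6 of 13 in LNCaP95, and 3 and 1 of 14 in 22Rv1. DUSP1, an immediate-early phosphatase gene, had -0.57, -1.86 and -0.03, MAP2K3 0.42, 0.26 and 0.15, and MAP2K7 0.08, -0.22 and -0.12.

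Of 9 cell cycle and repair partners of GADD45, none was lower and 5 were higher in LNCaP, 2 were lower and 6 higher in LNCaP95, and none was lower and 3 were higher in 22Rv1, with medians of 0.14, 0.15 and 0.05. PCNA, the DNA polymerase clamp, had 0.14, 0.74 and -0.08, the repair nuclease gene APEX1 0.08, 0.15 and -0.04, and CDK1 0.10, -0.38 and -0.12. Of the NF-kB list, 4 of 14 were lower and 3 higher in LNCaP, 8 and 2 of 15 in LNCaP95, and 2 and none of 12 in 22Rv1, with medians of -0.02, -0.22 and -0.02. NFKBIA, which encodes the inhibitor IkB-alpha, had -0.14, -0.73 and 0.15, RELA 0.08, -0.50 and 0.08, and NFKB2 -0.20, -0.27 and 0.05. CDKN1A and MAP3K5 stand on more than 1 of these lists.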

How the data were processed

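RNA was sequenced from 27 samples on stranded, poly(A)-selected libraries. Per the labels, the authors aligned reads to GRCh37 with HISAT2 2.1.0 and summarized exonic fragments per gene with featureCounts of Subread 2.0.3 in reverse-stranded mode. The deposited values are raw counts without normalization, and removal of duplicates is not given in the sources used here. From these counts, CPM and RPKM were computed with TMM factors over all libraries. Each line was fitted in R 4.3.3 with edgeR 4.0.16 (legacy quasi-likelihood F-test) on genes above 2 CPM in all 9 libraries, 3 CTRL sh against 6 CPSF1 sh, with Benjamini-Hochberg adjustment over all genes tested and a threshold of 0.05. Hairpins were compared in fits with 3 groups, and lines in fits of 27 libraries. DESeq2 1.42.0, other scalings and filters and left-out libraries were alternatives. Scripts were tested on simulated data. Replicate libraries differed beyond counting error (chi-square per degree of freedom 1.38 to 6.98), with a biological coefficient of variation of 4.95 to 7.09%. The paper describes replicates as biological, and p-values measure the spread between these cultures. In the fits of 3 CTRL sh against 6 CPSF1 sh libraries, that spread also includes differences between the 2 hairpins.

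The genes and lists were chosen with earlier results of these data known. The text names the 8 genes, the other SOCS genes, the 3 genes of each other list with the highest mean RPKM in the controls, and the 4 genes most like PIM1 and GADD45B. ANKRD37 and BHLHE40 were named as neighbours in rank after their values were seen. Signals, AU-rich elements and promoters were searched as exact letters.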

Additional observations from a re-analysis of the deposited data

Results flagged for a closer look

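The change of PIM2 with CPSF1 knockdown differed between 22Rv1 and LNCaP by 0.31 on the log2 scale (SE 0.114, edgeR adjusted p = 0.0301), with 6 of 6 knockdown libraries above every control in 22Rv1 and 5 of 6 below every control in LNCaP. It was the only one of 7 genes called in that comparison, in which 40.4% of all genes were called. The spread in that fit was estimated with the LNCaP95 libraries included. The call was lost in 5 of the fits that left out 1 library (adjusted p = 0.0504 to 0.0656).

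For GADD45A, SOCS2 and PIM2, all 6 knockdown libraries of LNCaP95 lay below the mean of its controls on the log2 scale, while all 6 of another line lay above the mean of theirs. These differences were not tested, because the LNCaP95 contrast chose the genes. The share of all genes with this pattern was not computed, so nothing is read from the number of genes flagged. The log2 change of GADD45A was 1.65 lower in LNCaP95 than in LNCaP (a difference of -1.65) and 1.61 higher in 22Rv1 than in LNCaP95. SOCS2 differed by -0.89 between LNCaP95 and LNCaP, and by 1.25 between 22Rv1 and LNCaP95. PIM2 differed by 0.44 between 22Rv1 and LNCaP95.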

How the results depend on the processing

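No called value changed direction under any alternative. The counts in LNCaP (6 called, 6 to 7 with 1 library left out) and LNCaP95 (6, 5 to 7), between the hairpins in LNCaP (0) and LNCaP95 (4, 3 to 5), and between the controls of 22Rv1 and LNCaP (6) stayed within 1.5 times. In 22Rv1 the count of 4 genes became 1 when CPSF1 sh1 was set alone against CTRL sh and 7 when CPSF1 sh2 was, and ranged from 1 to 6 with 1 library left out (1 without CTRL sh replicate 1, 2 without CTRL sh replicate 3). Between the hairpins in 22Rv1 the count of 1 became 0 with DESeq2 and ranged from 0 to 3 with 1 library left out (0 without CPSF1 sh1 replicate 2 or CPSF1 sh2 replicate 3, 3 without CPSF1 sh1 replicate 1). The count of 1 for the difference between 22Rv1 and LNCaP ranged from 0 to 2. The causes of these changes were not tested, and some of those fits also held fewer libraries.

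Calls near the threshold moved most. PIM3 in 22Rv1 was called with no filter (adjusted p = 0.0317), filterByExpr (0.0426) and DESeq2 (0.0443). It was also called without CPSF1 sh1 replicate 3 (edgeR adjusted p = 0.00486) or CPSF1 sh2 replicate 2 (0.0480). With the hairpins as separate groups, PIM2 in LNCaP (0.0419) and PIM3 (0.0200) and GADD45A (0.0214) in 22Rv1 were called. GADD45A in 22Rv1 was also called without CPSF1 sh1 replicate 1 (0.0260) or replicate 3 (0.0388). SOCS3 was called in LNCaP only with no filter (log2 fold change -1.86, edgeR adjusted p = 0.0462), at 5 counts or fewer per library. Library size alone moved the median of all genes in LNCaP95 to 0.09.

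Replicate numbers were not used as pairs in the main fits. Deviations of libraries with the same number correlated at -0.268 to 0.316. Of 27 libraries, 14 correlated best with their own number among the 3, so partial pairing by number remains possible. With the replicate number as a block the counts were 6 in LNCaP, 6 in LNCaP95 and 5 in 22Rv1, where PIM3 was called in addition (edgeR adjusted p = 0.0469), and 0, 4 and 1 between the hairpins.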
